A study of Rattus norvegicus with 6 samples.

Results

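The genes of oxidative phosphorylation were followed in HEI-OC1 cells, an immortalized line from the hearing organ of the inner ear, as 100 of the 18718 gene rows of the count table. Members were chosen by gene symbol and annotated gene type, with no measured value in the rule, though earlier results of these data were known. They are the protein-coding rows whose symbol starts with Mt-, which are encoded in the mitochondrial genome, and the protein-coding rows with Nduf, Sdh, Uqcr, Cyc1, Cox4 to Cox8 or Atp5 symbols, which are encoded in the nucleus. This gave 13 mitochondrially encoded rows and 87 nuclear encoded rows. A further 3 rows matched by symbol but are annotated as processed pseudogenes and were left out.

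In the siHNRNPD group, 3 libraries came from cells given an siRNA against Hnrnpd, which encodes AUF1, a protein known to bind AU-rich stretches of mRNA and to alter their decay. In the siNC group, 3 libraries came from the same line given a control siRNA. Culture was at 37 °C and 5% CO2 with 10% fetal serum in both groups, and the labels do not say how long after transfection they were harvested. Nor do they say whether the replicates are separate cultures, and the p-values therefore reflect library-to-library spread that may be technical.

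The respiratory chain and ATP synthase are built from subunits of both genomes. The mitochondrial genome supplies core, membrane-embedded subunits of complexes I, III, IV and V, its genes are transcribed as long strands that are cut into single RNAs inside the organelle, and complex II is wholly nuclear. The nuclear subunits are transcribed gene by gene, translated in the cytosol and imported, and nuclear respiratory factor 1 (NRF1), GABP of the ETS family, YY1 and the estrogen-related receptors are known regulators of many of them. HEI-OC1 cells are used as a model of cochlear hair cells, which depend on mitochondrial ATP.

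The promoters of 3 nuclear members are shown because they carry these regulators' motif letters, whereas the 13 mitochondrially encoded genes have no promoters of this kind. Each is the RefSeq window of build GRCr8 from 250 bases before to 50 bases after the gene start, read 5′ to 3′ on the gene's strand, with motif letters in capitals, which appear as their reverse complement where the match is on the other strand. Sdha, the flavoprotein of complex II (chr1:30764303-30764602, plus strand), held 3 matches to the NRF1 letters GCGCANGCG. Cox4i1, a nuclear subunit of complex IV (chr19:65630133-65630432, plus strand), held 2 matches to the ETS letters CCGGAAG, and Cox8a, the smallest subunit of complex IV (chr1:213833574-213833873, minus strand), held 2 ETS matches and 1 match to the YY1 letters AAGATGGC.
Sdha: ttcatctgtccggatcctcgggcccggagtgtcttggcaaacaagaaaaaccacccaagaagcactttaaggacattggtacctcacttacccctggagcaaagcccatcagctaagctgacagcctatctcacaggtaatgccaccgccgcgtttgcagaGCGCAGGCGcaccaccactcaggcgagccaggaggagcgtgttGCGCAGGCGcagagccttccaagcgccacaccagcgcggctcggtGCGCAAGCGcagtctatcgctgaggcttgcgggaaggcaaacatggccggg
Cox4i1: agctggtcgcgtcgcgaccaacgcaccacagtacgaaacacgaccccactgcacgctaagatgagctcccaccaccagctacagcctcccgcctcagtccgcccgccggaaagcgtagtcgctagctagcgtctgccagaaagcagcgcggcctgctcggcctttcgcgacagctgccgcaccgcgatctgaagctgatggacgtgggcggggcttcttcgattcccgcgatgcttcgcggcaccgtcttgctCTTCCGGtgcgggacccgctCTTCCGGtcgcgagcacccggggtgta
Cox8a: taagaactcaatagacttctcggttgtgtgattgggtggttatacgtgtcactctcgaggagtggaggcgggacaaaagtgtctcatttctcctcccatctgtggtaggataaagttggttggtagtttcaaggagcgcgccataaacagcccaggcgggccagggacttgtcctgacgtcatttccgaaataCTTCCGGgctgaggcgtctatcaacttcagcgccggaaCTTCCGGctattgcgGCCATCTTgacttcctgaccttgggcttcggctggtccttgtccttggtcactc

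Both strands were searched for 4 motifs, and a promoter was found for 73 of the 84 nuclear member symbols, 58 of them by the symbol in the files. The NRF1 letters stood in 17 of the 73 member promoters (23.3%), against 7.62% of the promoters of 21851 protein-coding genes. For the ETS letters the count was 20 (27.4%) against 10.7%, and for the YY1 letters 14 (19.2%) against 3.67%. The estrogen-related receptor letters TCAAGGTCA stood in 2 (2.74%), Atp5g3 and Sdhd, against 0.366%. At least 1 of the 4 was present in 41 member promoters (56.2%), against 19.7% of protein-coding genes and 16.1% of all 33469 genes of the promoter table. The NRF1 letters are nearly their own reverse complement, so matches on the 2 strands can overlap. A match describes letters only and is not a shown binding site. The genes compared against were not matched to the members for GC content or expression.

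The libraries held 28984535 to 35842904 gene counts, and 12268 genes passed the filter on low counts and were tested. The siRNA target, listed as Hnrpd, had 6183, 6633 and 5976 counts in siHNRNPD libraries 1 to 3, against 9267, 9445 and 9709 in siNC libraries 1 to 3. All 3 siHNRNPD libraries lay below all 3 siNC libraries after scaling, with a log2 change of -0.67 (SE 0.082, edgeR adjusted p = 0.0426). Leaving out 1 library moved that p to between 0.0458 and 0.319. Over all tested genes edgeR called 10 (0.0815%), of which 3 were higher (0.0245%) and 7 lower (0.0571%), and DESeq2 called 162 of 11453, or 1.41%. As a check of the cell type, 9 of 13 listed hair cell markers had a row, and 6 of these (Calb2, Espn, Gfi1, Otof, Slc17a8 and Slc26a5) stayed under 10 counts in every library. The other 3 were Myo6, an unconventional myosin, with 1101 to 1225 counts per library, Cdh23, a tip-link cadherin, with 13 to 37, and Myo7a, another unconventional myosin, with 2 to 18.

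The median level of the mitochondrially encoded mRNAs stood far above that of the nuclear ones in every library. By the authors' FPKM, which counts reads per gene length and depth, the median of the 13 mitochondrially encoded rows was 2851, 4159 and 3193 in siHNRNPD libraries 1 to 3, against 4680, 3345 and 2653 in siNC libraries 1 to 3. The median of the 87 nuclear rows was 176.8, 161.5 and 165.1 FPKM in siHNRNPD libraries 1 to 3, against 167.1, 176.1 and 172.8 FPKM in siNC libraries 1 to 3. The ratio of these medians was thus 16.1, 25.8 and 19.3 in siHNRNPD libraries and 28, 19 and 15.3 in siNC libraries, and the groups overlapped. How the libraries were prepared, by poly-A selection or by removal of rRNA, is not given in the sources used here, and the labels say rat for a line usually described as mouse, a point the deposited tables do not settle. Levels of different genes carry that limit. The promoters shown above come from a rat build, so the open question of species holds for them and for their motif counts as well.

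Among the mitochondrially encoded genes, Mt-co1, the catalytic subunit of complex IV, had the highest mean level, 9636 FPKM over the 6 libraries, and Mt-nd6, a complex I subunit encoded on the opposite strand to the others, the lowest, 208 FPKM, which is below many nuclear rows. Mt-co1 alone took 30.4 ± 1.95% of the counts of the 13 rows in siHNRNPD libraries and 31.3 ± 1.54% in siNC libraries (SD, n = 3 each). Next came Mt-atp6, the proton-channel subunit of ATP synthase, with 7380 FPKM, Mt-cox3 with 7056 FPKM and Mt-co2 with 6756 FPKM. The nuclear medians by complex were 543 FPKM for ATP synthase (16 rows), 395 for complex IV (19 rows), 181 for complex III (8 rows), 151 for complex I (31 rows) and 127 for complex II (4 rows). The 9 rows of assembly factors or related genes that the symbols also took in had a median of 10.8 FPKM. Strand use in the counting is not given in the sources used here, so reads of Mt-nd6 cannot be told apart from reads of the opposite strand at its place. Mt-atp8 overlaps Mt-atp6 and Mt-nd4l overlaps Mt-nd4 on the same strand. How reads in the stretches they share were counted is not given either.

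**Figure D1:**
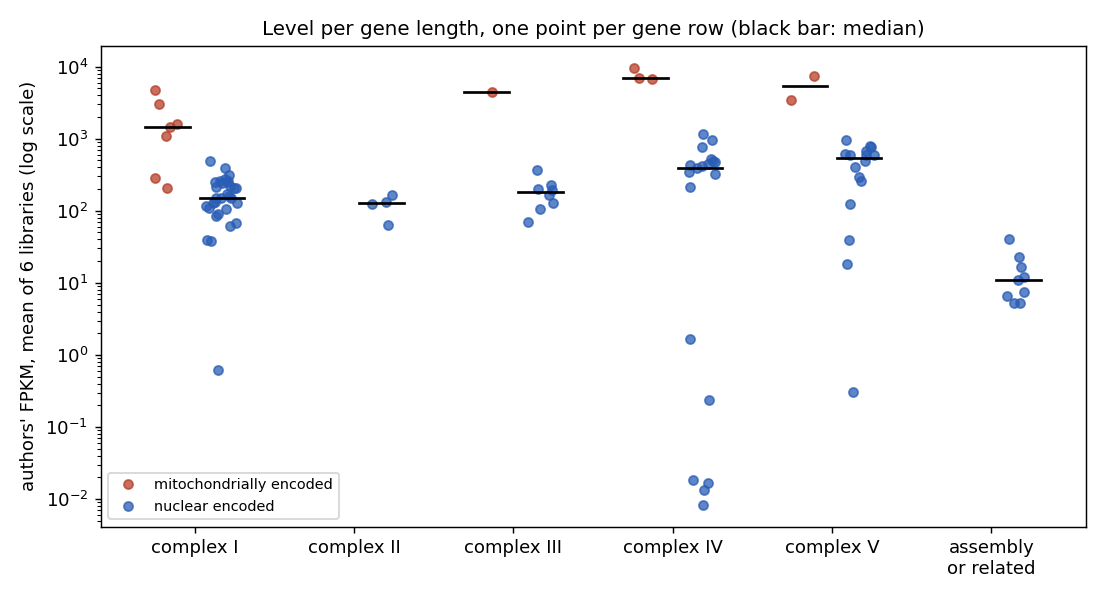
Level of each member row as the authors' FPKM (mean of all 6 libraries, log axis), by respiratory complex, with mitochondrially encoded rows in red and nuclear rows in blue; 1 point is 1 row and the black bar is the median. The mitochondrially encoded rows run from 208 to 9636 FPKM, and the nuclear row with the highest level, Cox6a1, has 1143 FPKM.

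The share of all counts that fell on the mitochondrially encoded rows did not separate the groups. It was 4.96%, 6.14% and 5.29% in siHNRNPD libraries 1 to 3, against 6.61%, 5.89% and 4.94% in siNC libraries 1 to 3, with means of 5.46 ± 0.61% and 5.81 ± 0.84% (SD, n = 3 each). Library siNC 1 was the highest and siNC 3 the lowest of the 6, so the control group spanned the siHNRNPD group. The nuclear rows took 2.02%, 1.88% and 1.94% of counts in siHNRNPD libraries 1 to 3, against 1.83%, 1.95% and 2.0% in siNC libraries 1 to 3, with siNC 1 now the lowest library, siHNRNPD 1 the highest, and the ranges overlapping.

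Counts of mitochondrially encoded rows were 2.45, 3.27 and 2.73 times those of nuclear rows in siHNRNPD libraries 1 to 3, against 3.62, 3.03 and 2.47 times in siNC libraries 1 to 3. The group means of the log2 ratio were 1.48 ± 0.21 in siHNRNPD libraries and 1.59 ± 0.28 in siNC libraries (SD, n = 3 each), a difference of -0.10, which is smaller than either SD. Without siNC 1 the difference was 0.032, and over all 6 ways of leaving out 1 library it lay between -0.24 and 0.032. A change in cell makeup and a change in RNA per cell cannot be told apart in such bulk libraries.

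The same held within each complex that draws on both genomes. For complex I the ratio of mitochondrially to nuclear encoded counts was 2.47, 3.45 and 2.80 in siHNRNPD libraries 1 to 3, against 3.89, 3.13 and 2.53 in siNC libraries 1 to 3. For complex IV it was 5.34, 7.45 and 5.74 in siHNRNPD libraries and 8.21, 6.90 and 5.37 in siNC libraries. Complex III, with Mt-cytb as its only mitochondrially encoded member, had ratios of 3.35, 3.42 and 4.03 in siHNRNPD libraries and 4.01, 3.41 and 3.11 in siNC libraries. ATP synthase had the lowest ratios, 0.778, 1.02 and 0.908 in siHNRNPD libraries and 1.08, 0.878 and 0.781 in siNC libraries. In all 4 complexes the ranges of the groups overlapped.

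**Figure D2:**
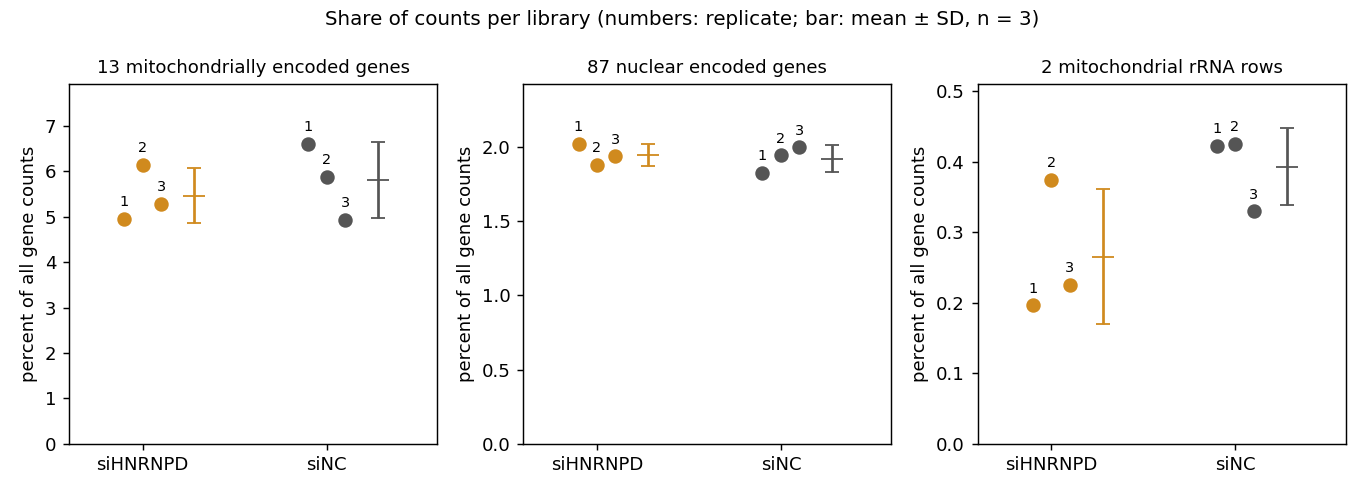
Percent of all gene counts in each library that fell on the 13 mitochondrially encoded rows, the 87 nuclear rows and the 2 mitochondrial rRNA rows, with siHNRNPD libraries left of siNC libraries; points are libraries with their replicate number, and the bar is the mean ± SD (n = 3). The mitochondrially encoded share runs from 4.96% to 6.14% in siHNRNPD libraries and from 4.94% to 6.61% in siNC libraries.

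Of the 100 members, 94 passed the filter, all 13 mitochondrially encoded rows and 81 of 87 nuclear rows. The quasi-likelihood test of edgeR called 0 of the 94 at an adjusted p under 0.05, where 0.0815% of all tested genes were called (0.0245% higher and 0.0571% lower). DESeq2 also called 0 members, where it called 1.41% of all its tested genes. At an unadjusted p under 0.05 there was 1, Ndufa10, where 11% of all tested genes reached that level (5.84% higher and 5.2% lower). Without siNC 3 there were 12 of 95 tested members at that level, 12.6%, where 15.5% of all genes of that fit reached it. The CPM values (depth-scaled counts, with TMM library sizes) of the 2 groups did not overlap for 6 of the 94, against 17% of all tested genes. Among them were the nuclear genes Ndufa10, Uqcrb, Ndufa4, Atp5j and Ndufaf5, lower in siHNRNPD libraries.

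The median fitted log2 change was -0.085 over the 13 mitochondrially encoded rows and -0.0059 over the 81 nuclear rows, beside 0.0054 over all tested genes. Among the mitochondrially encoded rows 3 changes were positive and 10 negative, and among the nuclear rows 39 were positive and 42 negative. Without siNC 1 the mitochondrially encoded median turned positive, to 0.058, and without siHNRNPD 2 it was -0.22. The 95% interval of the change stayed within 1.5-fold in either direction for 11 of 13 mitochondrially encoded rows and 79 of 81 nuclear rows, and the median SE of a log2 change was 0.141 over the mitochondrially encoded rows and 0.075 over the nuclear rows.

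**Figure D3:**
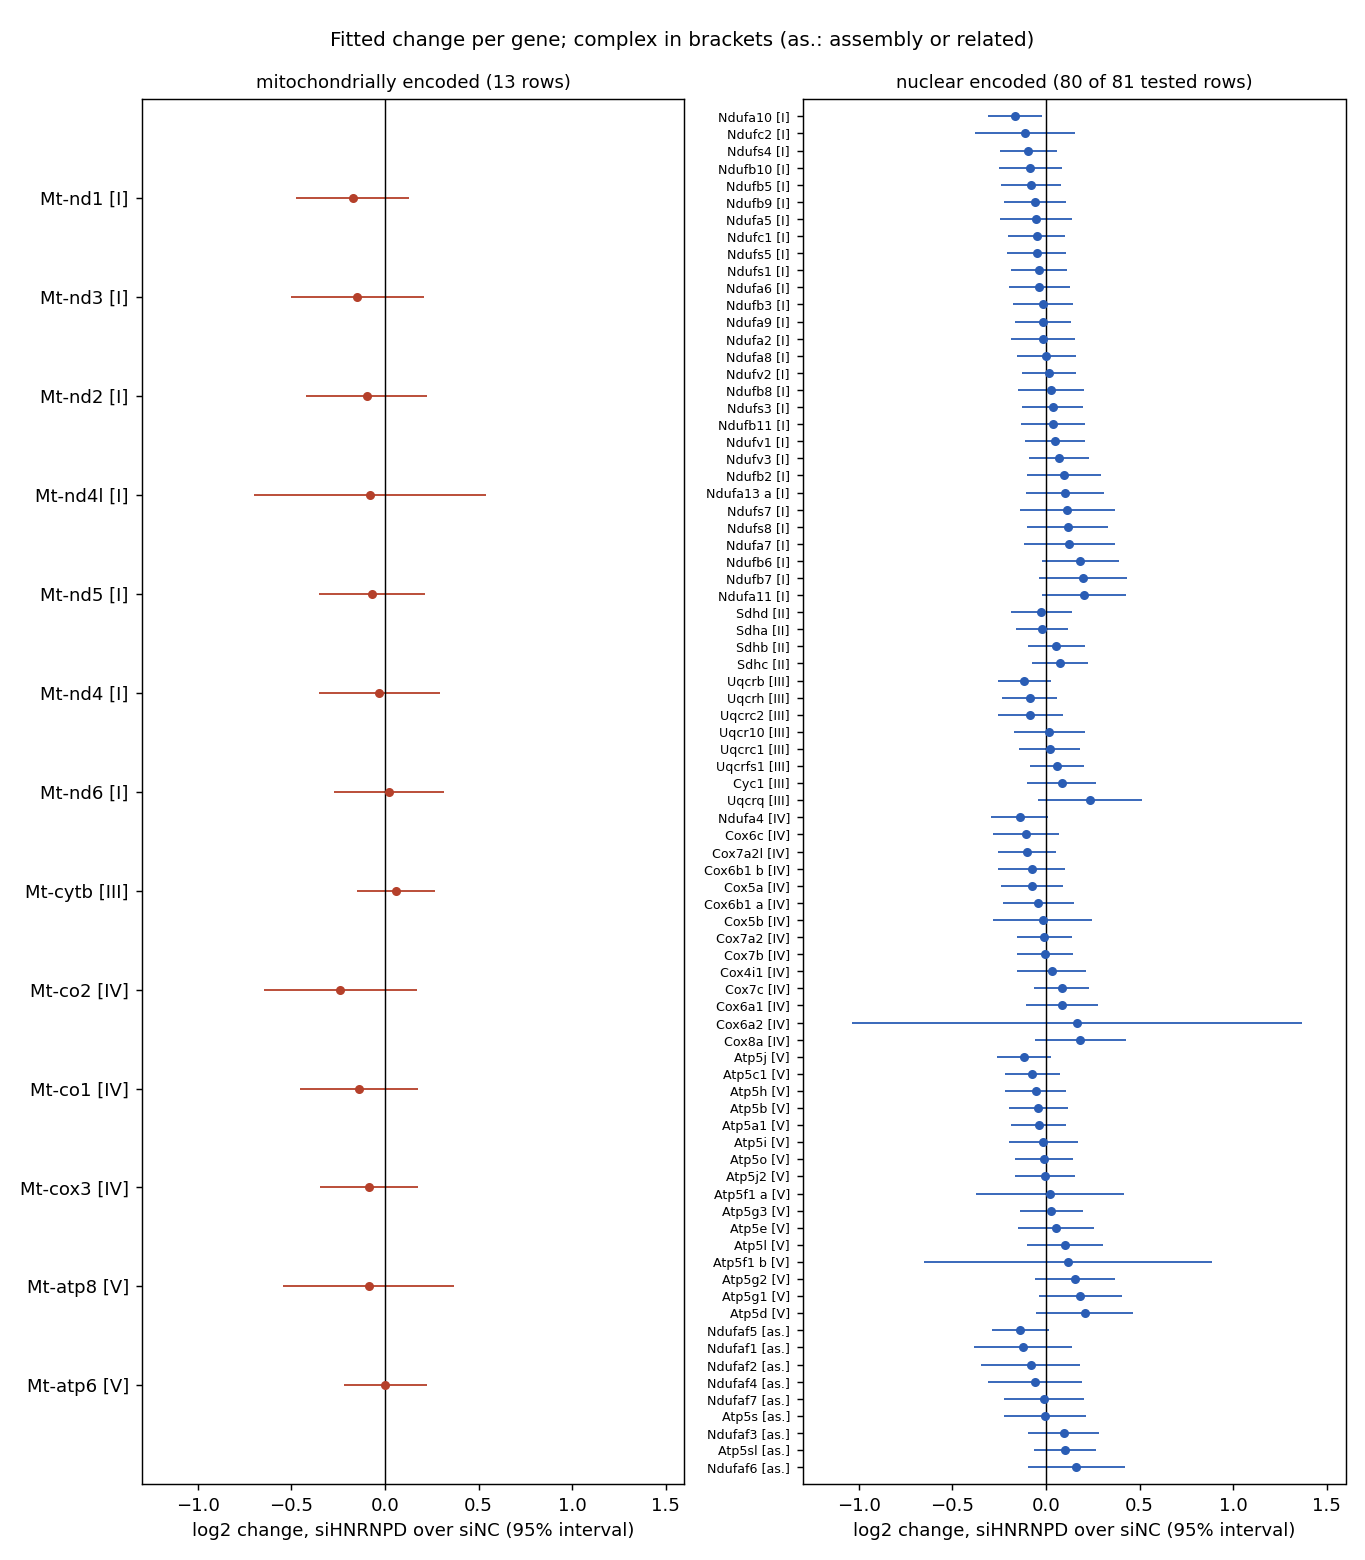
Fitted log2 change of the tested members, siHNRNPD over siNC, with its 95% interval, for mitochondrially encoded rows on the left and nuclear rows on the right, ordered by complex (in brackets), with 1 nuclear row not drawn; where 2 rows share a symbol, a is the row with the higher FPKM and b the other. Every interval drawn except that of Ndufa10 includes 0, and the widest, of Cox6a2, runs from -1.04 to 1.37.

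Mt-co1 had 15895, 19399 and 14452 CPM in siHNRNPD libraries 1 to 3, against 19922, 19818 and 15009 CPM in siNC libraries 1 to 3. Mt-co2, the subunit that takes electrons from cytochrome c, had 4115, 6217 and 4554 CPM in siHNRNPD libraries, against 7153, 5826 and 4572 CPM in siNC libraries. Mt-cox3, the third core subunit of complex IV, had 5686, 7022 and 6115 CPM in siHNRNPD libraries, against 7585, 6607 and 5779 CPM in siNC libraries. In all 3 genes siHNRNPD 2 was the highest siHNRNPD library and siNC 3 the lowest siNC library, and the groups overlapped. The log2 changes were -0.14 (95% interval -0.45 to 0.18) for Mt-co1, -0.24 (-0.65 to 0.17) for Mt-co2, the most negative of the 13, and -0.085 (-0.35 to 0.18) for Mt-cox3, with edgeR adjusted p values of 0.763, 0.666 and 0.829.

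Cytochrome b, the heme protein of complex III encoded by Mt-cytb, followed another order of libraries, with 5924, 5643 and 6588 CPM in siHNRNPD libraries 1 to 3, against 6293, 5784 and 5336 CPM in siNC libraries 1 to 3. It was the only mitochondrially encoded row that was highest in siHNRNPD 3, and its log2 change of 0.060 (95% interval -0.15 to 0.27) was the most positive of the 13. Its within-group spread was also the smallest of the 13, an SD of 0.117 on the log2 scale. As a share of the counts of the 13 rows it made up 11.8%, 9.13% and 12.8% in siHNRNPD libraries 1 to 3, against 9.53%, 9.64% and 10.9% in siNC libraries 1 to 3, and these ranges overlapped.

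For ATP synthase, Mt-atp6 had 5448, 6387 and 5797 CPM in siHNRNPD libraries, against 6463, 5860 and 5274 CPM in siNC libraries, a log2 change of 0.0029 (95% interval -0.22 to 0.22). Mt-atp8, a small membrane subunit, had 678, 999 and 743 CPM in siHNRNPD libraries, against 1128, 813 and 625 CPM in siNC libraries, a log2 change of -0.085 (-0.54 to 0.37). Both were highest in siNC 1 and lowest in siNC 3, with the siHNRNPD libraries between them.

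The 7 mitochondrially encoded subunits of complex I form the core of its proton-pumping membrane arm. Mt-nd1 had 4819, 5804 and 4444 CPM in siHNRNPD libraries, against 6324, 6001 and 4641 CPM in siNC libraries, and Mt-nd2 had 3025, 4087 and 3387 CPM in siHNRNPD libraries, against 4486, 3612 and 3138 CPM in siNC libraries. Mt-nd4 had 1942, 2619 and 2302 CPM in siHNRNPD libraries, against 2753, 2359 and 1890 CPM in siNC libraries, and Mt-nd5 had 2111, 2569 and 2242 CPM in siHNRNPD libraries, against 2862, 2388 and 2012 CPM in siNC libraries. All 4 were highest in siNC 1, and their groups overlapped.

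Mt-nd3 had 522, 762 and 575 CPM in siHNRNPD libraries, against 799, 706 and 552 CPM in siNC libraries. Mt-nd6 had 122, 146 and 114 CPM in siHNRNPD libraries, against 146, 128 and 103 CPM in siNC libraries. The least abundant by counts, Mt-nd4l, had 68.2, 127 and 97.8 CPM in siHNRNPD libraries, against 148.6, 92.7 and 68.4 CPM in siNC libraries, and its within-group SD of 0.507 on the log2 scale was the largest of the 13. The log2 changes of the 7 genes ran from -0.17 for Mt-nd1 (95% interval -0.47 to 0.13) to 0.020 for Mt-nd6 (-0.27 to 0.31), and the lowest edgeR adjusted p was 0.673, for Mt-nd1.

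Replicates of a group differed more in the mitochondrially encoded rows than in the nuclear ones. The SD of log2 CPM between replicates of a group had a median of 0.225 over the 13 mitochondrially encoded rows and 0.089 over the 81 nuclear rows, beside 0.091 over the 3898 tested genes averaging 50 CPM or more. The rows moved together from library to library. The median deviation from each row's own mean was -0.18, 0.19 and -0.083 in siHNRNPD libraries 1 to 3 and 0.27, 0.026 and -0.21 in siNC libraries 1 to 3 on the log2 scale. Within the siNC group, siNC 1 was highest and siNC 3 lowest in 13 of 13 rows, and siHNRNPD 2 lay above siHNRNPD 1 and 3 in 12 of 13, all but Mt-cytb. Since the 13 rows share a genome, libraries and scaling, they are not independent of each other.

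In the nuclear rows the library pattern was smaller and ran in other directions. The median deviation was 0.082, -0.024 and -0.046 in siHNRNPD libraries 1 to 3 and -0.069, 0.036 and 0.038 in siNC libraries 1 to 3. Of the 81 tested rows 41 were highest in siHNRNPD 1 and 40 were lowest in siNC 1, the library with the highest mitochondrially encoded share. The part of library depth in these patterns was not tested. By total counts siNC 1 was the smallest library, with 28984535, and siNC 3 the largest, with 35842904.

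**Figure D4:**
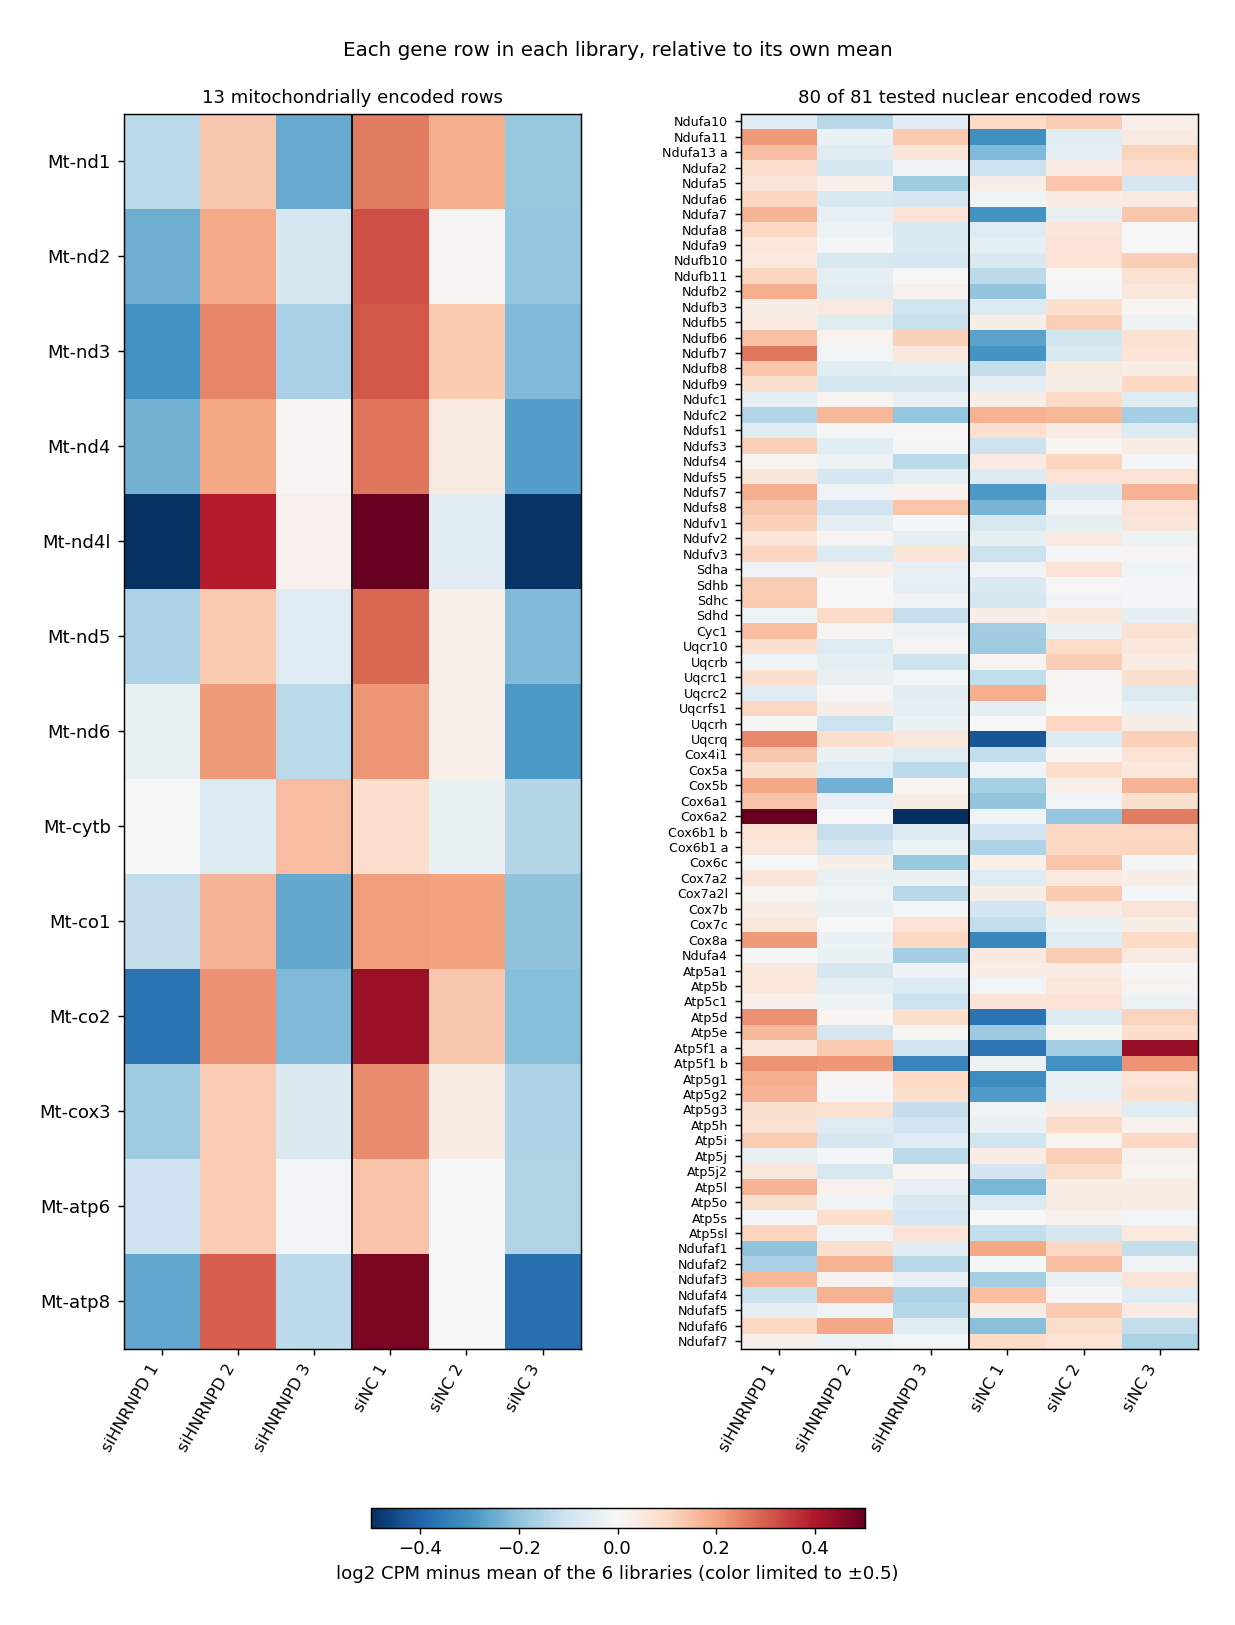
Log2 CPM of the tested members (1 nuclear row not drawn) in each library minus the row's mean over the 6 libraries, with siHNRNPD libraries left of the black line and siNC libraries right of it; red is above the mean, blue below, and the color is limited to ±0.5. The 13 mitochondrially encoded rows are mostly red in siHNRNPD 2 and siNC 1 and mostly blue in siHNRNPD 1 and siNC 3, while the nuclear rows deviate less; a and b name the rows of a shared symbol with the higher and lower FPKM.

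**Figure D5:**
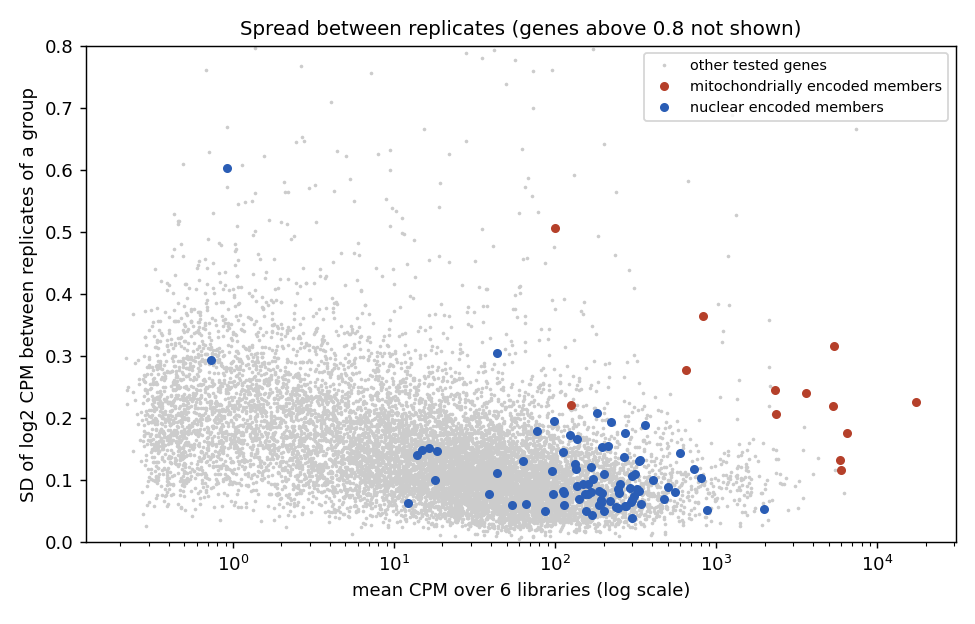
SD of log2 CPM between replicates of a group (pooled over the 2 groups) against mean CPM over the 6 libraries (log axis), for all 12268 tested genes in grey, mitochondrially encoded members in red and nuclear members in blue; genes above 0.8 are not shown. The mitochondrially encoded members lie between 0.117 and 0.507, with a median of 0.225, against a median of 0.089 for the nuclear members.

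The nuclear subunits of complex I numbered 31 rows, of which 30 were tested, 16 with a positive and 14 with a negative log2 change and a median of 0.010. Ndufa10, an accessory subunit of the complex, had 83.5, 78.7 and 83.3 CPM in siHNRNPD libraries 1 to 3, against 93, 94.5 and 88.2 CPM in siNC libraries 1 to 3. All siHNRNPD libraries lay below all siNC libraries, with a log2 change of -0.17 (95% interval -0.31 to -0.023), an unadjusted p of 0.0277 in the edgeR fit and an adjusted p of 0.395, which does not pass.

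The most positive change in complex I was that of Ndufa11, an accessory subunit of the membrane arm, with 245.2, 206.6 and 231.3 CPM in siHNRNPD libraries, against 171.0, 203.9 and 218.3 CPM in siNC libraries (log2 change 0.20, 95% interval -0.021 to 0.43). The groups overlapped, siNC 1 was the lowest library, and without it the change was 0.098. Library siNC 3 lay within the siHNRNPD range, and the change without siNC 3 is not given. Ndufa13 had the highest level of the complex, 485 FPKM from its row on chromosome 16, while a second row of the same symbol on chromosome 7 held 9 to 15 counts per library and was not tested.

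Complex II, which has no mitochondrially encoded subunit, had 2 positive and 2 negative changes. Its 4 genes had log2 changes from -0.025 for Sdhd (95% interval -0.19 to 0.14) to 0.075 for Sdhc (-0.076 to 0.23), both membrane anchors. Sdha, whose promoter is shown above, had 167.9, 173.0 and 165.4 CPM in siHNRNPD libraries, against 168.0, 178.7 and 167.8 CPM in siNC libraries, and the groups overlapped.

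Complex III had 8 nuclear rows, all tested, 5 with a positive and 3 with a negative change and a median of 0.019. Uqcrq, a small subunit of the complex, had the most positive change of all 94 members, 0.24 (95% interval -0.041 to 0.52), from 213.4, 191.6 and 187.8 CPM in siHNRNPD libraries, against 134.1, 172.2 and 196.4 CPM in siNC libraries. Library siNC 1 stood lowest, siNC 3 lay within the siHNRNPD range, and the change was 0.089 without siNC 1 and 0.37 without siNC 3. Uqcrb, another small subunit, had 197.6, 193.7 and 186.4 CPM in siHNRNPD libraries, against 202.2, 218.4 and 205.5 CPM in siNC libraries, without overlap (log2 change -0.12, 95% interval -0.26 to 0.026, edgeR adjusted p = 0.534). The level per length was highest for Uqcrh, the hinge protein, at 373 FPKM and lowest for Uqcrc2, a core protein, at 69.9 FPKM.

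Complex IV had 19 nuclear rows, of which 14 were tested, 5 with a positive and 9 with a negative change and a median of -0.013. Ndufa4, first described with complex I and now counted with complex IV, had 297.9, 292.0 and 266.4 CPM in siHNRNPD libraries, against 308.8, 326.4 and 309.0 CPM in siNC libraries, without overlap (log2 change -0.14, 95% interval -0.29 to 0.011, edgeR adjusted p = 0.478). Cox8a, whose promoter is shown above, had 310.9, 262.5 and 288.4 CPM in siHNRNPD libraries, against 213.5, 257.4 and 287.6 CPM in siNC libraries. These overlapped, with a log2 change of 0.18 (-0.060 to 0.43) that was 0.065 without siNC 1, the lowest library. Library siNC 3 lay within the siHNRNPD range, and the change without it is not given. Cox4i1 had 888.3, 789.9 and 772.8 CPM in siHNRNPD libraries, against 740.4, 813.1 and 847.5 CPM in siNC libraries, with a log2 change of 0.030 (-0.15 to 0.21).

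Several subunits of complex IV exist in a widely expressed form and in forms known from lung, muscle, heart or testis, and nearly all counts fell on the widely expressed form. Cox4i2, the form known from lung, had 1, 3 and 0 counts in siHNRNPD libraries and 0, 0 and 1 in siNC libraries, where Cox4i1 had 21478 to 31088. Cox6a2, the form of heart and skeletal muscle, had 64, 28 and 8 counts in siHNRNPD libraries and 24, 21 and 40 in siNC libraries, beside 1143 FPKM for Cox6a1, the highest nuclear level of all members. Cox6b2, Cox8b and Cox8c had at most 1 count in any library, and Ndufa4l2 had 6 to 14. Cox6b1 stood on 2 rows, on chromosomes 1 and 2, with 428 and 446 FPKM, and reads of near-identical copies may have been split between them.

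ATP synthase had 16 nuclear rows, all tested, 8 with a positive and 8 with a negative change and a median of 0.0076. Atp5b, the catalytic beta subunit, had the highest level of them, 960 FPKM, with 2066, 1919 and 1896 CPM in siHNRNPD libraries and 1970, 2065 and 2013 CPM in siNC libraries (log2 change -0.040, 95% interval -0.20 to 0.12). Atp5d, a subunit of the central stalk, had 421.6, 361.7 and 381.8 CPM in siHNRNPD libraries, against 278.4, 342.9 and 388.6 CPM in siNC libraries. Its groups overlapped, and its log2 change of 0.21 (-0.052 to 0.46) was 0.075 without siNC 1, the lowest library. Library siNC 3 lay within the siHNRNPD range, and the change without it is not given. Atp5j, coupling factor 6 of the peripheral stalk, had 267.1, 272.4 and 250.3 CPM in siHNRNPD libraries, against 281.2, 297.3 and 278.0 CPM in siNC libraries, without overlap (log2 change -0.12, -0.26 to 0.028, edgeR adjusted p = 0.540).

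The ring of the synthase is made of subunit c, for which Atp5g1, Atp5g2 and Atp5g3 encode the same mature protein. Their shares of the summed FPKM of the 3 genes were 18.1 ± 0.66%, 47.5 ± 1.59% and 34.5 ± 2.24% in siHNRNPD libraries and 17.2 ± 1.01%, 46.0 ± 2.31% and 36.8 ± 3.31% in siNC libraries (SD, n = 3 each). The difference was smaller than the larger of the 2 SDs for each gene. Atp5f1, the b subunit, stood on 2 rows of chromosome 2 with 18.0 and 0.302 FPKM, far below the other Fo and stalk genes, whose median was 595 FPKM over 11 rows with those 2 included.

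The 9 assembly factors and related genes that the symbols took in, mostly Ndufaf genes that help build complex I, were all tested, 3 with a positive and 6 with a negative change. Ndufaf5 had 52.0, 53.0 and 48.6 CPM in siHNRNPD libraries, against 55.0, 58.8 and 55.2 CPM in siNC libraries, without overlap (log2 change -0.14, 95% interval -0.29 to 0.014, edgeR adjusted p = 0.491). Ndufaf6 had the most positive change of these genes, 0.16 (-0.098 to 0.42), and its groups overlapped.

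The 2 mitochondrial rRNA rows, which carry no Mt- symbol in the files and so were not members, had more negative log2 changes than any of the 13 mRNA rows of the same genome. One of them, AY172581.9, had 1344, 2351 and 1340 CPM in siHNRNPD libraries 1 to 3, against 2578, 2883 and 2201 CPM in siNC libraries 1 to 3. The other, AY172581.24, had 651, 1416 and 852 CPM in siHNRNPD libraries, against 1646, 1455 and 1069 CPM in siNC libraries. Libraries siHNRNPD 1 and 3 lay below every siNC library in both rows, while siHNRNPD 2 lay within the siNC range. The log2 changes were -0.61 (95% interval -1.06 to -0.15, edgeR adjusted p = 0.338) and -0.51 (-1.08 to 0.055, adjusted p = 0.495), so neither passed. Without siHNRNPD 2 they were -0.93 with an adjusted p of 0.0458 and -0.89 with an adjusted p of 0.188, and with no filter on low counts AY172581.9 also passed, with an adjusted p of 0.0454. Both rows were singled out after their values were seen. The difference between rRNA and mRNA changes was not tested. Whether the libraries were made by poly-A selection or by removal of rRNA is not given. The part of library preparation in these rRNA counts was not tested.

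Other genes that serve the same system were read from 6 lists, and edgeR and DESeq2 each called 0 genes in every list. Over all tested genes the share called was also small, 0.0815% with edgeR and 1.41% with DESeq2. Of 47 tested assembly factors outside the member symbols, 31 changes were positive and 16 negative, with a median of 0.038, and 1 was lower at an unadjusted p under 0.05. That gene was Atpaf1, a chaperone of F1 assembly, with 29.8, 32.9 and 27.4 CPM in siHNRNPD libraries, against 39.7, 37.6 and 33.2 CPM in siNC libraries, without overlap (log2 change -0.29, 95% interval -0.50 to -0.083, edgeR adjusted p = 0.323).

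Of 18 tested genes of mitochondrial DNA maintenance and transcription, 11 changes were positive and 7 negative, and 2 were higher at an unadjusted p under 0.05. The smaller p was that of Tk2, the mitochondrial thymidine kinase, with 20.3, 19.6 and 17.9 CPM in siHNRNPD libraries, against 15.7, 14.6 and 16.4 CPM in siNC libraries, without overlap (log2 change 0.31, 95% interval 0.098 to 0.51, edgeR adjusted p = 0.313). Of 34 genes of mitochondrial RNA processing, 18 changes were positive and 16 negative, with 3 higher and 1 lower at that level. Tbrg4, a FASTK family protein known to stabilize several mitochondrial mRNAs, had 47.4, 48.0 and 45.0 CPM in siHNRNPD libraries, against 38.1, 39.1 and 41.4 CPM in siNC libraries, without overlap (log2 change 0.24, 95% interval 0.092 to 0.39, edgeR adjusted p = 0.264).

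Among 18 tested regulators of mitochondrial biogenesis, 12 changes were positive and 6 negative, and 1, of the nuclear receptor gene Ppard, was higher at an unadjusted p under 0.05 (log2 change 0.21, edgeR adjusted p = 0.443). Among 23 genes of the tricarboxylic acid cycle and pyruvate dehydrogenase, 13 were positive and 10 negative, and 1, Suclg2, a subunit of succinyl-CoA ligase, was lower at that level (log2 change -0.18, edgeR adjusted p = 0.436). Among 20 genes of mobile carriers and coenzyme Q synthesis, 9 were positive and 11 negative, with 1 higher and 3 lower at that level. Cycs, which encodes cytochrome c, the carrier between complexes III and IV, had 409.9, 436.7 and 424.6 CPM in siHNRNPD libraries, against 487.4, 491.3 and 454.4 CPM in siNC libraries, without overlap (log2 change -0.17, 95% interval -0.32 to -0.028, unadjusted p = 0.0243 and adjusted p = 0.379 in the edgeR fit). These shares stand beside 5.84% of all tested genes higher and 5.2% lower at that level.

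Marker lists of other cell types were read beside these values, and their part in the results was not tested. The summed CPM of the hair cell list, mostly that of Myo6, was 33.1 to 37.9 in siHNRNPD libraries and 34.4 to 42.0 in siNC libraries. For the supporting cell list it was 174 to 216 in siHNRNPD libraries and 196 to 212 in siNC libraries, with Prox1 under 10 counts throughout. The 12 fibroblast and mesenchymal genes summed to 8398 to 10334 CPM in siHNRNPD libraries and 8312 to 8945 CPM in siNC libraries, with Acta2 and Dcn under 10 counts. The 10 leukocyte genes summed to 69.8 to 72.8 CPM in siHNRNPD libraries and 61.5 to 66.5 CPM in siNC libraries, which did not overlap. However, 6 of them, Ptprc, Cd3e, Cd79a, Csf1r, Itgam and Adgre1, were under 10 counts in every library. The 4 that were tested had 2 positive and 2 negative log2 changes. Among these 4 the groups did not overlap for 1, where 17% of all tested genes did not overlap.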

How the data were processed

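RNA of 6 libraries was sequenced as 150 nt paired ends. The submitters' processing notes name TopHat2 and build mRatBN7.2, with its version, read counter and strand setting not given in the sources used here. The authors deposited whole-number read counts for 18718 gene rows, not normalized, and FPKM values for 18628 rows. Columns were matched to samples by siRNA name and replicate number.

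The test on the deposited counts was edgeR's quasi-likelihood test (version 4.0.16, R 4.3.3) after filterByExpr and TMM scaling, with only the group in the model, Benjamini-Hochberg adjustment over 12268 genes and calls at an adjusted p under 0.05. Members' values were read from this fit. CPM uses TMM-scaled library sizes. Alternatives were DESeq2 1.42.0, 3 other scalings or library sizes in edgeR (RLE, upper quartile, and without the mitochondrially encoded rows), no filter, the replicate number as a block, each library left out, and limma 3.58.1 on log2(FPKM + 1) or log2(FPKM + 0.1), which understates changes of low genes. Each of the 15 library pairs differed beyond sampling noise, so none was treated as a duplicate.

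Members, lists and tests were chosen with earlier results of these data known. Of 226 list entries, 189 matched by symbol, 17 by synonym and 20 not. The text names Hnrnpd, every mitochondrially encoded row, in each complex the nuclear member with the highest and lowest FPKM and the largest positive and negative change, members at an unadjusted p under 0.05, isoform groups, Cycs and up to 3 genes of each list with the smallest p; not all are printed, and 1 nuclear member is not reported here. Promoters came from RefSeq (GRCr8) and were matched by symbol or synonym; no other coordinates are given because the gene models' build is not certain.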

Additional observations from a re-analysis of the deposited data

How the results depend on the processing

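No member was called under any of the 15 alternatives, with 0 to 12 at an unadjusted p under 0.05, the most without siNC 3 (12.6% of 95 tested members, beside 15.5% of all genes in that fit). The median log2 change of the mitochondrially encoded rows, the share differences and the log2 ratio of mitochondrially encoded to nuclear counts moved by less than the spread between replicates under every alternative run. For the shares and the log2 ratio, leaving out 1 of 3 libraries cannot move a difference by more than that spread. Those fits could not fail this check, so it does not show that these values are stable. The spread set for the median log2 change came from the same rows and libraries. Its fits without 1 library could hardly fail either, so the check does not show that median to be stable. Leaving out 1 library gave a median of -0.22 to 0.058, a difference of mitochondrially encoded shares of -0.79 to 0.051 percentage points and of nuclear shares of -0.025 to 0.061, with the positive mitochondrially encoded values coming without siNC 1. With the 2 rRNA rows added, an alternative chosen after seeing the data, the share difference was -0.48 percentage points, beside -0.35 without them. The sign of the change was the same in all 15 alternatives for 4 of 13 mitochondrially encoded rows and 51 of 81 nuclear rows. Over all genes edgeR called 10, against 162 with DESeq2, 147 with no filter, 6 with upper-quartile scaling, 5 with limma on log2(FPKM + 0.1), and 0 with limma on log2(FPKM + 1), with or without a minimum FPKM (1157 and 1604 at an unadjusted p under 0.05); the cause was not tested. Leaving out 1 library gave 0 to 14 calls, 0 without siNC 1, 2 or 3 (964, 724 and 1919 at an unadjusted p under 0.05), 1 without siHNRNPD 1, 7 without siHNRNPD 2 and 14 without siHNRNPD 3. With the replicate number as a block edgeR called 0 genes (1062 at an unadjusted p under 0.05). The labels do not say whether libraries of the same number form pairs. Their deviations from the group means had correlations of -0.26, 0.14 and 0.10, against -0.33 to 0.23 between libraries of different number. With 3 libraries per group these values cannot settle whether libraries pair. Hnrpd had an adjusted p of 0.0508 to 0.319 under 8 alternatives and passed under the other 7. The 95% intervals printed beside the genes are not adjusted for the number of genes tested, so they are not limits of detection. Atpaf1, with an interval of -0.50 to -0.083, had an edgeR adjusted p of 0.323 and was not called. Hnrpd, with a log2 change of -0.67, passed in the main edgeR fit with an adjusted p of 0.0426. Whether the Atpaf1 change is real was not tested. Since Hnrpd, the siRNA target, did not pass under 8 of the 15 alternatives, an absent call does not show an absent change.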
